A study of Rattus norvegicus with 12 samples.

Results

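The regions described here are the CpG-sparse members of a list of genomic regions whose DNA methylation score differed between islets of growth-restricted and control rats. They were chosen by CpG density, the number of CpGs the authors counted in a region per 1000 bases of its length, and every listed region below 1.5 CpGs per kb was kept. This gave 204 of the 512 listed regions, or 39.8%. The score itself played no part in the choice, but all 512 regions had been listed by the authors because their scores differed between the groups. Pancreatic islets were taken at 2 weeks of age from rats whose growth had been restricted in the uterus (IUGR) and from controls. The labels describe 12 libraries, 6 per group (3 replicate numbers, each cut with HpaII and with MspI), and the region table holds 2 IUGR and 3 control scores per region. Which IUGR replicate has no score is not stated. The labels name neither the strain, the sex nor the procedure behind the growth restriction, and do not say whether a replicate is an animal or a pool, so a p-value here reflects the spread among these replicates alone, and that spread may be technical.

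Islets are small endocrine clusters within the pancreas and hold the insulin-producing beta cells, and growth restriction before birth is a known risk factor for diabetes later in life. In mammalian DNA most CpGs lie far apart in CpG-poor sequence and are usually methylated, whereas CpG islands, short stretches rich in CpGs that often hold gene starts, are usually unmethylated. HELP-tagging reads methylation at CpGs within CCGG: HpaII cuts this sequence only when it is unmethylated, MspI cuts it in either state, and the tags of the first enzyme are set against those of the other. Only such CpGs are counted here, so a density below 1.5 per kb says nothing of CpGs in other sequence. Scores run from 0 to 100. Which end of that scale is the methylated one is not stated in the labels or file headers, so changes are given as higher or lower scores. The tag depth behind a score is unknown.

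The sparse regions were long stretches with few measured CpGs. They spanned 2679 to 12043 bases with a median of 4206 bases, against a median of 2243 bases in the other 308 listed regions. Of the 204 regions, 107 held 4 CpGs, the fewest in the list, 43 held 5, 32 held 6 and the longest region held 13. The median of the mean distance between neighbouring CpGs was 1096 bases, against 582 bases in the other regions. Together the sparse regions covered 939.6 kb with 1023 CpGs, and the other regions 725.2 kb with 1691 CpGs. Length and spacing follow from the density that chose the regions and are given only to describe them.

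Sparse here means sparse relative to the rest of the list. The authors' running number of CpGs, which rises along each chromosome in the table of single CpGs, gives the number of CpGs around a region. Between the nearest single listed CpG before a region and the nearest after it, a stretch with a median of 733 kb around sparse regions, there was a median of 0.844 running numbers per kb around 202 sparse regions and 0.971 around 306 other regions. The region's own density was above that of its surroundings at 153 of those 202 sparse regions and not above it at 49, and it was above at 299 of the 306 other regions. The surrounding stretch includes the region itself and is counted in running numbers, whereas the region's density uses the authors' CpG count. These counts can differ, as described further below. Part of this excess is built in, because a region that starts and ends at a CpG holds 1 CpG more than it has intervals. Counted as intervals between CpGs, the sparse regions had a median of 0.912 per kb, and 118 of 202 were above their surroundings, against 280 of 306 other regions. Within the sparse regions, density and surrounding density were weakly related (Spearman's rho 0.124 over 202 regions, which share chromosomes and partly the same stretches).

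The limit of 1.5 CpGs per kb fell between regions of nearly equal density. Coordinates are those of the files, on build rn6. Just inside it, the region at chr12:38423654-38426332 had 1.493 CpGs per kb and a difference of 34.3, that at chr17:19316412-19320448 had 1.486 CpGs per kb and a difference of 36.7, and that at chr16:21830959-21833653 had 1.484 CpGs per kb and a difference of 17.9. Just outside it, the region at chr20:15719724-15723056 had 1.50015 CpGs per kb and a difference of 27.6. The next, at chr5:136028124-136032786, had 1.501 CpGs per kb and a difference of 16.9, and that at chr19:54204985-54208296 had 1.510 CpGs per kb and a difference of 28.8. All differences are IUGR minus control scores.

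Scores of the sparse regions were higher in IUGR islets almost throughout. Of the 204 regions, 201 scored higher and 3 scored lower in IUGR islets, a share of 98.5% higher. Averaged over the 204 regions, the score was 38.3 and 37.9 in the IUGR replicates, against 12.1, 14.4 and 13.3 in the control replicates. The group means were 38.1 ± 0.289 (SD, n = 2) in IUGR islets and 13.3 ± 1.16 (SD, n = 3) in control islets. The median difference over the 204 regions was 24.2, and its quartiles were 18.7 and 30.9. All 204 regions passed an adjusted p of 0.05 (limma, Benjamini-Hochberg over the 512 listed regions), 201 as higher and 3 as lower. Over the whole list 100% of regions passed, 95.5% as higher and 4.49% as lower, because the list had been chosen on this difference, so the calls are no independent evidence. The values of the groups did not overlap in any of the 204 regions, which again held for 100% of the list. With a single IUGR value left per region, fewer sparse regions were called by limma, where that value is taken to vary like the controls. The share of the whole list called in these fits is not given here. The median difference of the sparse regions was 23.4 without the first IUGR value and 24.8 without the second.

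The gap between the groups was wide in most regions. Its median, from the nearest IUGR value to the nearest control value, was 17.2 score units, against 14.15 in the other listed regions. Among the sparse regions it ranged from 1.70 to 43.6. No listed region differed by less than 10.2 between the group means, so a gap follows in part from the listing. The smallest gap, in a region picked out after its values were seen, lay at chr10:37253413-37259080. Its scores were 29.6 and 35.6 in IUGR islets, against 16.7, 27.9 and 17.4 in control islets. Within groups, the median SD of a sparse region was 2.40 between the 2 IUGR values and 4.58 between the 3 control values, and the IUGR SD was the smaller one in 162 of 204 regions. In the other listed regions the IUGR SD was smaller in 232 of 308. An SD of 2 values tends to be smaller than an SD of 3 at equal spread, so part of this contrast follows from the numbers of replicates. Since regions with agreeing replicates were more likely to be listed, these SDs do not describe regions outside the list.

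**Figure D1:**
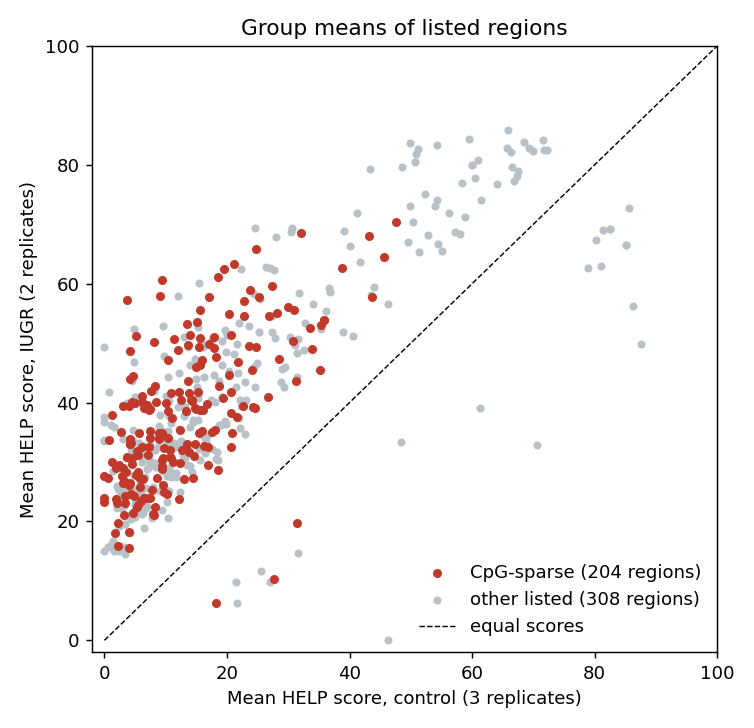
Mean HELP score of each listed region in IUGR islets (vertical axis, mean of 2 replicates) against control islets (horizontal axis, mean of 3 replicates), both on a scale of 0 to 100, with CpG-sparse regions in red and the other listed regions in grey. Sparse regions lie at control means of 0 to 47.6, and 3 of them fall below the line of equal scores.

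Control scores of the sparse regions were low. The median of the control means was 10.8, and 94 of 204 regions (46.1%) averaged under 10 in control islets, against 106 of 308 other regions (34.4%). No sparse region averaged over 50 in control islets, whereas 50 of the other regions did (16.2%). In IUGR islets 39 of 204 sparse regions averaged over 50 (19.1%), against 96 of 308 other regions (31.2%). At least 1 control replicate was at 0 in 52 sparse regions (25.5%), against 56 of 308 other regions (18.2%). None of the 204 had an IUGR value at 0, and only 1 of the 308 others did.

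The difference from the other listed regions lay mostly in the control scores. In each replicate, the mean over sparse regions minus the mean over other regions was -4.59 and -4.93 in IUGR islets, and -10.3, -9.17 and -10.2 in control islets. Sparse regions were thus lower than the others in 5 of 5 replicates, with a mean difference of -7.84 (exact sign-flip permutation test over replicates, two-sided p = 0.0625, the smallest that 5 replicates allow). The same regions were scored in every replicate, so this p does not measure the spread among regions. Among regions that scored higher in IUGR islets, 201 sparse and 288 others, the rise was 25.4 over sparse regions and 22.4 over the others. The difference between these rises was 2.94 (exact permutation test over replicates, two-sided p = 0.1, the smallest that 2 against 3 replicates allow), so neither comparison could reach 0.05. Over all regions of either direction, 204 sparse and 308 others, the sparse regions changed by 5.13 more than the others (exact permutation p = 0.1). With the densest 20% of the list left out, a comparison added after seeing the data, the mean over sparse regions minus that over the others was -2.25 in place of -7.84, again below 0 in 5 of 5 replicates (exact sign-flip permutation p = 0.0625). The difference between the rises was then 2.18 over regions that scored higher and 2.36 over all regions (exact permutation p = 0.1 for each). The rise depends on which regions the authors' selection admitted in each density class, and the part of that selection in these differences was not tested.

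**Figure D2:**
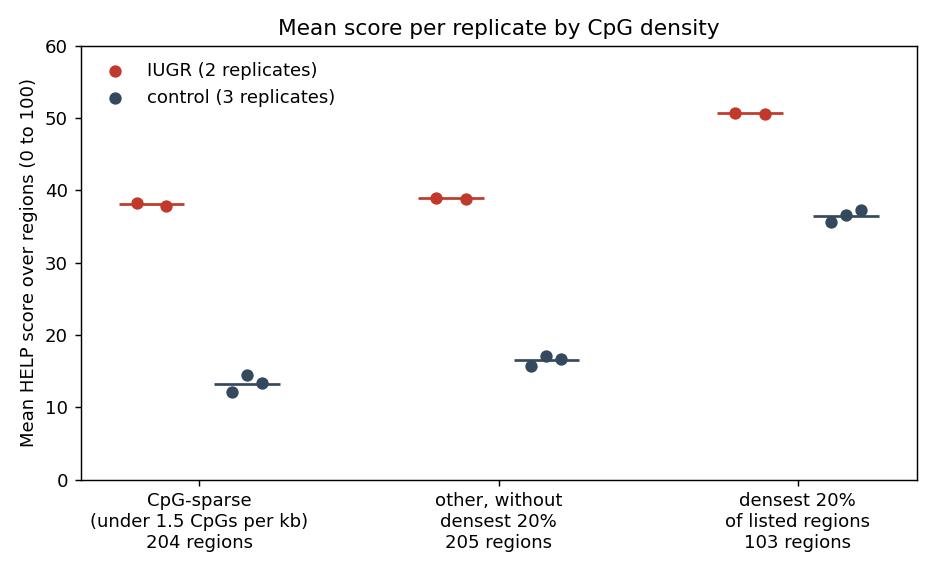
Mean HELP score over regions in each replicate (points) for CpG-sparse regions, for the other regions without the densest 20% of the list, and for that densest 20%, with IUGR replicates left of control replicates and a line at each group mean. Control means were 13.3 in the sparse regions, 16.5 in the middle class and 36.5 in the densest regions, and IUGR means 38.1, 38.9 and 50.7.

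Sparse regions held only 4 CpGs more often than the others did, in 107 of 204 against 111 of 308. The comparison was therefore repeated, after seeing the data, within regions of equal CpG number. At 4 CpGs the median difference was 25.7 in 107 sparse regions and 22.7 in 111 others, at 5 CpGs 22.6 in 43 sparse regions and 20.4 in 82 others, and at 6 CpGs 25.3 in 32 sparse regions and 20.1 in 49 others. With 7 or more CpGs it was 19.2 in 22 sparse regions and 16.3 in 66 others. The median was thus larger in the sparse regions in each of these classes. Among 4-CpG regions that scored higher in IUGR islets, the difference between the rises was 1.39 (exact permutation test over replicates, two-sided p = 0.2). Over all 4-CpG regions, 107 sparse and 111 others, it was 4.19 (exact permutation p = 0.1). The level of the 4-CpG sparse regions was lower, with a mean difference of -6.34 (exact sign-flip permutation p = 0.0625).

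Within the sparse regions the median difference varied by less than 3 score units between classes of density with 68 regions each. The sparsest 68 regions, at 0.412 to 1.04 CpGs per kb, had a median score of 34.7 in IUGR islets and 9.12 in control islets and a median difference of 25.5. The middle 68, up to 1.25 CpGs per kb, had medians of 34.9 in IUGR islets and 10.8 in control islets and a median difference of 23.1. The densest 68 had medians of 39.8 in IUGR islets and 13.6 in control islets and a median difference of 24.1. All 3 regions that scored lower in IUGR islets were in the middle class. Across the 204 regions Spearman's rho was 0.166 between density and control mean and -0.0667 between density and difference. The number of CpGs had rho -0.237 with the difference. The regions share libraries and, within a replicate, its depth, so these values are descriptions.

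In the sparse regions with the largest rises, IUGR scores lay near the middle of the scale and several control scores were at 0. At chr8:75009569-75014932, 4 CpGs over 5364 bases, the score was 64.4 and 50.1 in IUGR islets, against 0, 0 and 10.9 in control islets (difference 53.6, SE 5.45, limma adjusted p = 4.52e-04). At chr15:42181160-42187096, 5 CpGs over 5937 bases, it was 60.7 and 60.4 in IUGR islets, against 3.5, 17.1 and 7.4 in control islets. In both regions the lowest IUGR value was at least 39.2 above the highest control value. At chr10:88590975-88594149 the score was 62.5 and 53.3 in IUGR islets, against 0, 15.6 and 11.6 in control islets. At chr10:59116013-59120475 it was 48.4 and 49.1 in IUGR islets, against 4.8, 3.0 and 4.8 in control islets. In the second of these the replicates of each group differed by less than 2 score units, and 4 of its 6 CpGs were called different by the authors.

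Other large rises had higher control scores. At chr6:144452795-144456627 the score was 67.6 and 57.2 in IUGR islets, against 11.4, 25.5 and 21.8 in control islets. At chr14:103289275-103292194 it was 62.6 and 69.2 in IUGR islets, against 25.5, 19.8 and 28.9 in control islets. At chr19:57534120-57537839 it was 61.8 and 60.5 in IUGR islets, against 12.7, 20.2 and 22.5 in control islets. In these 3 regions no control replicate was at 0. The remaining 3 of the 10 largest rises were at chr4:81284250-81287236, chr7:66086369-66089657 and chr18:56606375-56612024, with differences of 46.0, 42.1 and 42.1. The limma adjusted p of the 10 regions lay between 2.80e-04 and 7.01e-04.

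**Figure D3:**
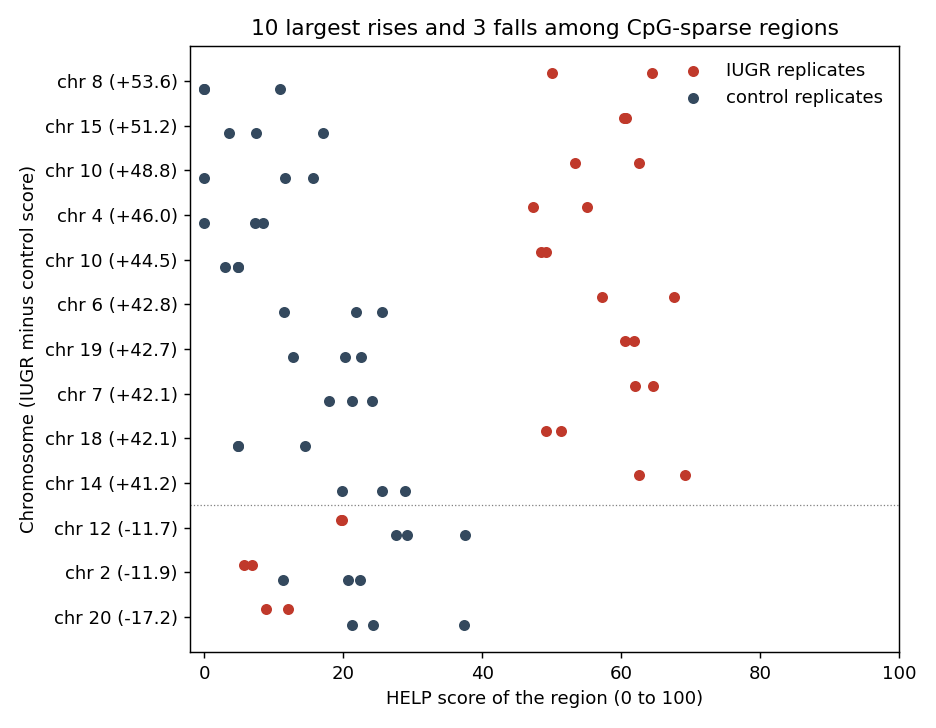
HELP score of each replicate (points) in the 10 sparse regions with the largest rise and, below the dotted line, the 3 that scored lower in IUGR islets, with IUGR replicates above control replicates in each row. In the top 10 rows IUGR scores lie between 47.3 and 69.2 and control scores between 0 and 28.9; in the bottom 3 rows IUGR scores lie between 5.7 and 19.8 and control scores between 11.3 and 37.5.

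The 3 falling regions changed by less than most rising ones. At chr20:8299277-8302566, 4 CpGs over 3290 bases, the score was 8.8 and 12 in IUGR islets, against 21.3, 24.2 and 37.3 in control islets (difference -17.2, SE 5.07, limma adjusted p = 0.0134). At chr2:229990503-229994714 it was 6.8 and 5.7 in IUGR islets, against 22.4, 20.7 and 11.3 in control islets. At chr12:854597-858050 it was 19.8 and 19.6 in IUGR islets, against 29.1, 37.5 and 27.6 in control islets. The difference was -11.9 in the chromosome 2 region (limma adjusted p = 0.0218) and -11.7 in the chromosome 12 region (limma adjusted p = 0.0177). The authors' deposited table gives q-values of 0.0445, 0.0513 and 0.0456 for the 3, near the upper end of the list. Each of the 3 lost its limma call without either IUGR value, with adjusted p from 0.0840 to 0.130. The chromosome 2 region also lost it without the first control value (adjusted p = 0.0528) or the second (adjusted p = 0.0583). Where falling regions of other densities had a mean of 43.5 ± 0.148 (SD, n = 2) in IUGR islets and 63.5 ± 1.21 (SD, n = 3) in control islets, the 3 sparse ones had 12.1 ± 0.448 (SD, n = 2) and 25.7 ± 1.62 (SD, n = 3).

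The longest and sparsest regions included both small and large differences. The sparsest region, at chr9:94954293-94964007, held 4 CpGs over 9715 bases, and all 4 were called different by the authors. Its score was 27.3 in both IUGR replicates, against 11.2, 16 and 16 in control islets. At chr1:45616394-45625942, with 4 CpGs over 9549 bases, the score was 40.2 and 37.4 in IUGR islets, against 1.9, 14.3 and 5.4 in control islets. The longest region, at chr4:179936864-179948906, held 13 CpGs over 12043 bases and rose by 14.4, with 23.1 and 26 in IUGR islets, against 7.5, 8.7 and 14.2 in control islets. At chr6:133824027-133833742, 5 of 6 CpGs over 9716 bases were called different, yet the score was 17 and 14.9 in IUGR islets, against 1.7, 2.0 and 2.7 in control islets. Of these 4 regions, the chromosome 1 region alone exceeded the median difference of all sparse regions. The others among the 5 longest or 5 sparsest, at chr1:211638132-211645235, chr15:16957978-16964695 and chr13:89760579-89770072, rose by 38.5, 25.7 and 18.9. In the first of these the controls were 6.7, 5.2 and 33.3, and its control SD of 15.8 was the highest among the 204 sparse regions.

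Starting levels at either end were also represented. All 3 control replicates were at 0 in 3 regions, at chr3:13577998-13581990, chr6:11162139-11166150 and chr14:102488724-102493388. Their IUGR scores were 23.2 and 24.8 in the first, 24.7 and 21.7 in the second, and 26.3 and 28.9 in the third. At the other end, the region at chr16:64741171-64744990 had 72.1 and 68.5 in IUGR islets, against 49.8, 44.5 and 48.4 in control islets, the highest control mean of the 204. The next 4, at chr9:94262798-94266877, chr1:83938405-83943176, chr1:224990766-224994610 and chr9:89554026-89558000, had control means from 38.7 to 45.6 and rose by 14.03 to 24.97.

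A pair of regions on chromosome 4 and another on chromosome 10 had identical scores in all 5 replicates. On chromosome 10 the regions from 34950734 to 34954550 and from 37044420 to 37048236 started 2.09 Mb apart and both spanned 3817 bases. Each had 30.9 and 35.1 in IUGR islets, against 4.4, 0 and 8.3 in control islets. On chromosome 4 the regions from 25354554 to 25358972 and from 27107723 to 27112281 started 1.75 Mb apart and spanned 4419 and 4559 bases. Each had 53.8 and 54.1 in IUGR islets, against 37.1, 34.7 and 35.5 in control islets. Each copy is counted here, and 202 regions remain with each pair counted once.

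About as many CpGs of the sparse regions were called different as were not. The authors called 518 of the 1023 CpGs different (50.6%), against 738 of 1691 in the other regions (43.6%). No listed region had fewer than 2 CpGs called different. Of the sparse regions 115 had 2, 71 had 3, 15 had 4 and 3 had 5. In 3 sparse regions every CpG was called different. Regions of 4 CpGs with 2 called have a share of 50% by construction. At equal CpG number the shares were 58.2% in 107 sparse and 56.1% in 111 other regions of 4 CpGs, 48.4% and 46.1% at 5 CpGs, and 49.5% and 40.5% at 6 CpGs.

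The table of single CpGs shows what some of those CpGs did. It lists CpGs that differed singly by a much larger amount, and 73 of them lay inside 65 of the 204 sparse regions (31.9%), against 101 inside 93 of 308 other regions (30.2%). Per 100 measured CpGs this came to 7.14 in sparse regions and 5.97 in the others. Of these CpGs, 58 of 73 in sparse regions stood at an edge of their region, as its first or final position, against 90 of 101 in the others. Of the 73, 71 scored higher and 2 lower in IUGR islets, with a median difference of 80.7, and 64 were at 0 in all 3 control replicates. Sparse regions with such a CpG had a median difference of 28.8, against 22.6 in the 139 sparse regions without one. In the other listed regions the medians were 24.8 with one and 19.5 without. Such a CpG is itself part of its region's score, so this contrast follows in part from its listing.

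The single scores make it possible to read the region score as an average. In the region at chr13:110325387-110329019, 4 CpGs over 3633 bases, the listed CpGs were its first and last. The first had 89.1 and 76.3 in IUGR islets, against 0, 36.3 and 0 in control islets, and the last had 69.5 and 80.7 in IUGR islets, against 0 in all 3 control replicates. Their sum divided by 4 gives 39.6 and 39.3 in IUGR islets, against 0, 9.07 and 0 in control islets. The region's own scores were 39.6 and 39.3 in IUGR islets, against 0, 9.1 and 0 in control islets, so its inner CpGs were left with a score of 0 within rounding in every replicate. Over all 158 listed regions with a single listed CpG, reading the region score as the unweighted mean left a possible score for the remaining CpGs in 790 of 790 replicate values (0 to 100, allowing for rounding by 0.05). This held with the scores in the order of the columns of the single table. In each of the other 11 orders of replicates 3 to 11 values fell outside the possible range, so only the order as deposited was free of contradiction. Most values stayed possible in those orders too, so the check is weak, and a weighted mean was not tried.

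On that reading, the single listed CpGs carried a median of 63.2% of the difference of the 65 sparse regions, with a range of 22.0% to 131%. They carried at least 50% of it in 52 regions and at least 90% in 8. Without them, the remaining CpGs of a region had a median score of 25.4 in IUGR islets and 11.5 in control islets. The median difference of the remaining CpGs was 12.9, and it was above 10 in 38 of the 65 regions and within 5 of 0 in 16. In the 93 other regions the single listed CpGs carried a median of 61.4%. The single CpGs were listed for their large difference, so a smaller one in the remaining CpGs follows in part from that choice.

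**Figure D4:**
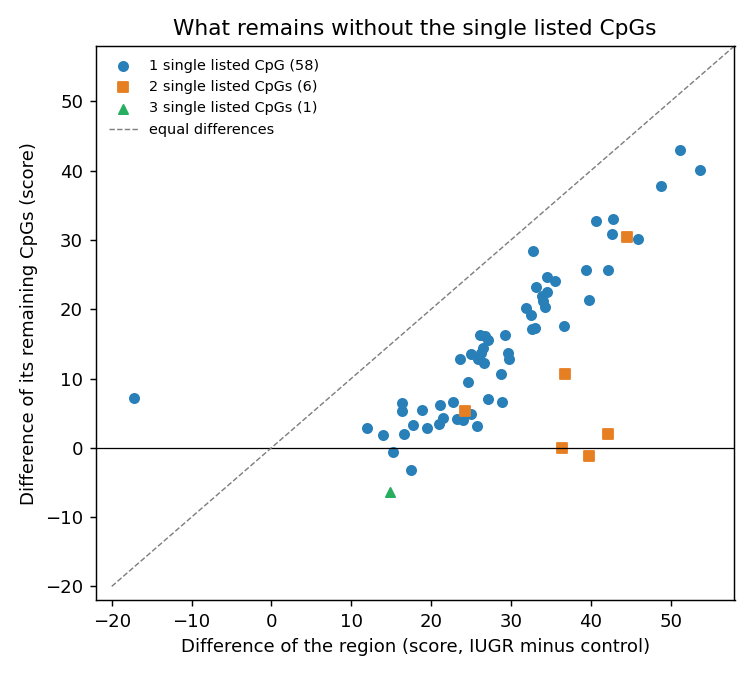
For the 65 sparse regions with a single listed CpG, the difference of the remaining CpGs (vertical axis, IUGR minus control score, computed from the region score read as an unweighted mean) against the difference of the whole region (horizontal axis, same unit), with colour and shape for the number of single listed CpGs in the region. Every rising region lies below the dashed line of equal differences, and differences of remaining CpGs run from -6.44 to 43.0.

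Single regions show both extremes. At chr1:98322376-98325222 the first and last of 4 CpGs each had 80.7 in both IUGR replicates and 0 in all 3 control replicates. The region scored 41.9 and 47.1 in IUGR islets, against 11.7, 2.4 and 0 in control islets, and its inner CpGs averaged 8.27 in IUGR islets and 9.40 in control islets. Single listed CpGs of other regions on chromosomes 1 and 2 had the same 80.7 in both IUGR replicates. Equal values in both replicates are therefore no measure of precision. At chr7:66086369-66089657 the region scored 62.0 and 64.5 in IUGR islets, against 24.1, 18.0 and 21.3 in control islets. Its outer CpGs rose to means of 70.5 and 94.1 in IUGR islets, against 0 in all control replicates, while the inner CpGs averaged 44.2 in IUGR islets and 42.3 in control islets. At chr1:98322376-98325222 and chr7:66086369-66089657 the difference therefore rested on 2 CpGs about 3 kb apart. In contrast, at chr15:42181160-42187096 the 4 CpGs other than the listed one still averaged 54.6 in IUGR islets and 11.7 in control islets. At chr7:115679597-115687929, with 10 CpGs, the remaining 9 averaged 35.5 in IUGR islets and 7.15 in control islets, and the listed CpG carried 22.0% of the difference, the smallest share among the 65.

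CpGs of the same region could move in opposite directions. The region at chr18:22793326-22798197 scored 39.2 in both IUGR replicates, against 22.5, 27.6 and 22.8 in control islets. It held 3 single listed CpGs. Those at 22793326 and 22793714 had 78.5 in both IUGR replicates, against 0 in all control replicates, whereas that at 22798197 was at 0 in both IUGR replicates, against 90.1, 91.4 and 91.4 in control islets. The falling region on chromosome 20 held the other single CpG that scored lower, at 8299277, with 0 in both IUGR replicates, against 85.4, 90.1 and 95.0 in control islets. Its remaining 3 CpGs averaged 13.9 in IUGR islets and 6.74 in control islets, a difference opposite to that of the region.

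The count of CpGs that set the density can fall short of the CpGs present. Of the 10 listed regions that begin and end at single listed CpGs, the running numbers spanned equalled the authors' CpG count in 7 and exceeded it by 1 in 2. In the remaining one, the region on chromosome 18 just described, they came to 8 where the count was 4, which gives 1.64 running numbers per kb and would place it above the limit. The other 3 sparse regions of the 10 had equal numbers. For the other sparse regions the running numbers inside were not analysed here.

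Sparse regions were found on all 20 autosomes that held listed regions, and the single listed region of the X chromosome was not sparse. Chromosome 1 held 24 of them, chromosome 4 16, and chromosomes 3, 9 and 10 15 each. As a share of the listed regions of a chromosome they ran from 25.0% on chromosome 17 (5 of 20) to 77.8% on chromosome 14 (7 of 9). The median difference of sparse regions by chromosome ran from 19.3 on chromosome 3 to 31.97 on chromosome 11, with 15 and 6 regions. Sparse regions were mostly solitary: the nearest other listed region was within 100 kb for 21 of 204 (10.3%), as for 31 of 308 other regions (10.1%). The closest, at chr9:92898820-92903615, lay 7253 bases from its neighbour. Genes at these regions were not analysed here, since no annotation of the files' build (rn6) was used.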

How the data were processed

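DNA methylation was measured by HELP-tagging in islets of IUGR and control rats. The deposited tables hold the authors' HELP scores per region and per CpG for 2 IUGR and 3 control replicates, with the authors' p-values and q-values and the numbers of CpGs counted and called different. The build is rn6, per the submitters' processing notes. The aligner, the scoring and the region caller are not stated in the labels or the file headers. Tag depth is not given, and counting error was not computed. Single-CpG scores recurred at equal values in different regions, and what this says of their depth was not tested. Scores were tested untransformed with limma 3.58.1 (R 4.3.3) over all 512 listed regions with Benjamini-Hochberg adjustment and a threshold of 0.05, and levels over regions with exact permutation tests over replicates. Summaries used Python 3.11.15 with pandas 2.3.3 and numpy 2.4.6, and figures matplotlib 3.10.9. The fit was tested on simulated data, where it called smaller differences less often than larger ones. The regions and comparisons were chosen with earlier results of these data known. Named regions were the 10 largest rises, all falls, the 5 sparsest, the 5 longest, the 3 nearest the limit on either side, the 5 highest control means, those with all controls at 0 and those with identical scores. The regions at chr10:37253413-37259080, chr13:110325387-110329019, chr18:22793326-22798197, chr1:98322376-98325222, chr7:115679597-115687929 and chr9:92898820-92903615 were chosen after their values were seen. Genes and sequences were not analysed here.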

Additional observations from a re-analysis of the deposited data

How the results depend on the processing

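The median difference of the sparse regions was 24.2, with 201 called higher and 3 lower by limma. With a density limit of 1.0 CpGs per kb the median difference was 25.7, with 55 called higher and 0 lower, and with a limit of 2.0 it was 23.1, with 333 called higher. With 5 or more CpGs it was 22.3, with 96 called higher and 1 lower. With 4 CpGs only, chosen after seeing the data, it was 25.7, with 105 called higher. These settings change the number of regions entered. A stricter limit on the authors' q kept 160 sparse regions, all called higher. The 3 falling regions were removed by that limit before the fit, so they were not tested under it. Leaving out each replicate in turn gave median differences of 22.9 to 25.3. With 1 control left out, 200 or 201 sparse regions were called higher and 2 or 3 lower. With 1 IUGR value left out, fewer sparse regions were called. The whole-list share in these fits is not given here. The comparison without the densest 20% was also added after seeing the data. No result reversed its direction under any alternative run. For the direction of single regions this was fixed beforehand, because the values of the groups did not overlap in any listed region. Neither dropping a replicate nor transforming the scores could have reversed it. With the replicate number as a block (replicate block), taken from the numbered single-CpG columns, 194 sparse regions were called higher and 3 lower by limma. Over the whole list 492 of 512 regions were called in that fit, so the count is no result about sparse regions. That fit compares 2 pairs, the third control adds nothing, and 1 residual degree of freedom is left. The labels do not say that a number marks a shared litter or day, or which IUGR replicate has no score. The numbers of the IUGR columns may therefore differ from those of the labels. Deviations of same-numbered replicates from their group means had r = -0.0682 and -0.0938 over the 512 regions. This correlation leaves out any shift common to all regions, and the deviations of 2 IUGR values mirror each other. It therefore cannot decide whether a number marks a shared litter or day. With 2 IUGR and 3 control scores, the exact tests could not pass 0.05, and without tag depth the error of a single score is unknown.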
